A study of Bos taurus with 12 samples.

Results

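The interferon response genes described here are 39 standard interferon-stimulated genes and RNA sensors, chosen by gene name. They were matched to the probes of a bovine microarray through the platform's gene symbols or their current synonyms. The list was chosen with earlier results of these data known. Of the 39, 31 have a named probe and 30 have at least 1 probe bright enough to test, out of 13534 named genes tested. RIGI, IFI44L, IFIT1, IFITM1, OAS1X, OAS1Y, DDX60 and BST2 have no named probe, and the HERC6 probe was too dim to be kept. The study measured RNA of cumulus cells, which enclose the oocyte in the ovarian follicle of the cow, grouped by the chromatin configuration of the oocyte's germinal vesicle. Stages run from GV0, the least condensed chromatin, through GV1 and GV2 to GV3. Complexes came from ovaries collected at a slaughterhouse, and the cumulus cells of 10 complexes of 1 stage made 1 pool of RNA, which was amplified with T7 RNA polymerase and labelled chemically. GV1, GV2 or GV3 RNA carried Cy5 and GV0 RNA carried Cy3, with 4 arrays per stage and no dye swap. Each slide held the arrays of 1 stage in 4 areas, and an array is called here by its stage and area number. The submitters call the samples biological replicates, but the labels do not tie the pools to different animals, and the p-values therefore cover pool-to-pool spread, part of which may be technical. As each slide holds 1 stage, slide and stage cannot be told apart.

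Interferons are secreted proteins that warn cells of viral nucleic acid. RNA sensors such as IFIH1 switch on interferon genes through factors of the IRF family, and secreted interferon signals through its receptors to transcription factors, STAT2 and IRF9 among them, that turn on the stimulated genes. Their products block virus entry, bind or cut viral RNA, or stop translation, and in ruminants interferon tau from the early conceptus induces many of the same genes in the uterus.

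The share of probes brighter than the negative control spots was 59.9% to 83.6% in the Cy5 channel and 65.8% to 79.5% in the Cy3 channel. All 16 cumulus and granulosa markers were tested, and FSHR, INHA and GJA1 exceeded background with either dye on each of the 12 arrays. TNFAIP6 exceeded it on 7 arrays in Cy5 and on 6 in Cy3. The leukocyte marker PTPRC and the theca marker INSL3 also exceeded it with both dyes on all 12 arrays. Signal above background therefore cannot check the cumulus label. Cy3 signals of the same area number on different slides correlated across probes between 0.989 and 0.997, against 0.933 to 0.971 for different area numbers. The GV0 RNA was therefore read as 4 pools, each hybridised on 3 slides, so the comparisons of GV1, GV2 and GV3 with GV0 share their GV0 samples. Without a dye swap, any dye bias of a probe is part of each stage's ratio to GV0, but not of a difference between 2 stages. GV1 area 3 stands apart from the other arrays, and results that rest on it are given with and without it.

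Interferon response genes leaned higher in each condensed stage than in GV0, but few passed the test. As the list was chosen with earlier results known, this lean is no independent support. Ratios are log2 of stage over GV0, so that a log2 ratio of 1 means 2 times the signal, and a gene was counted as changed at an adjusted p under 0.05 in limma over all kept probes. In GV1, HERC5 and PARP9 rose and none fell. In GV2, IFIH1 and PARP14 rose and USP18 fell. In GV3, IFIH1, HERC5 and PARP12 rose and USP18 fell. Because the samples are bulk pools, fewer cells of a type and less RNA per cell cannot be told apart in any of these differences.

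Those counts of 2, 2 and 3 risen genes out of 30 stand beside a background of 3.78%, 4.58% and 4.3% of all named genes that rose in GV1, GV2 and GV3. The counts of 0, 1 and 1 fallen genes stand beside 5.69%, 5.73% and 6.7%. The median ratio of the 30 genes was 0.38 in GV1, 0.23 in GV2 and 0.24 in GV3, against 0.00, 0.00 and -0.01 over all named genes. A mean ratio above 0 was found for 27 of the 30 genes in GV1, 21 in GV2 and 23 in GV3, against 50.3%, 50.1% and 48.3% of all named genes. Without GV1 area 3 it was found for 21 in GV1, the GV1 median of the 30 genes was 0.12, and no member passed the test. On those 11 arrays 218 of the 13534 named genes rose and 350 fell in GV1. Over all 4 GV1 arrays, 25 of the 28 members kept through more than 1 stage had a GV1 mean above 0, with a median of 0.37. The 2 left out there, ISG20 and RSAD2, were kept through GV1 alone. Leaving out 1 array of a stage at a time ended each of the 9 calls in 3 or 4 of the 4 cases. HERC5 in GV1 passed without area 2, USP18 in GV2 without area 1, and IFIH1 and PARP14 in GV2 and IFIH1, HERC5 and PARP12 in GV3 without area 3; PARP9 in GV1 and USP18 in GV3 passed in none of these 4 cases.

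No difference between stages passed. In the differences of GV2 over GV1, GV3 over GV1 and GV3 over GV2, limma called 0 of the 30 genes and 0% of all named genes. At an unadjusted p under 0.05 there were 1, 1 and 0 members, against 129, 272 and 373 of the 13534 named genes. The member was ISG20 in both cases, which passed the filter on dim probes through GV1 alone, the stage where it is high, so nothing is read from it.

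**Figure D1:**
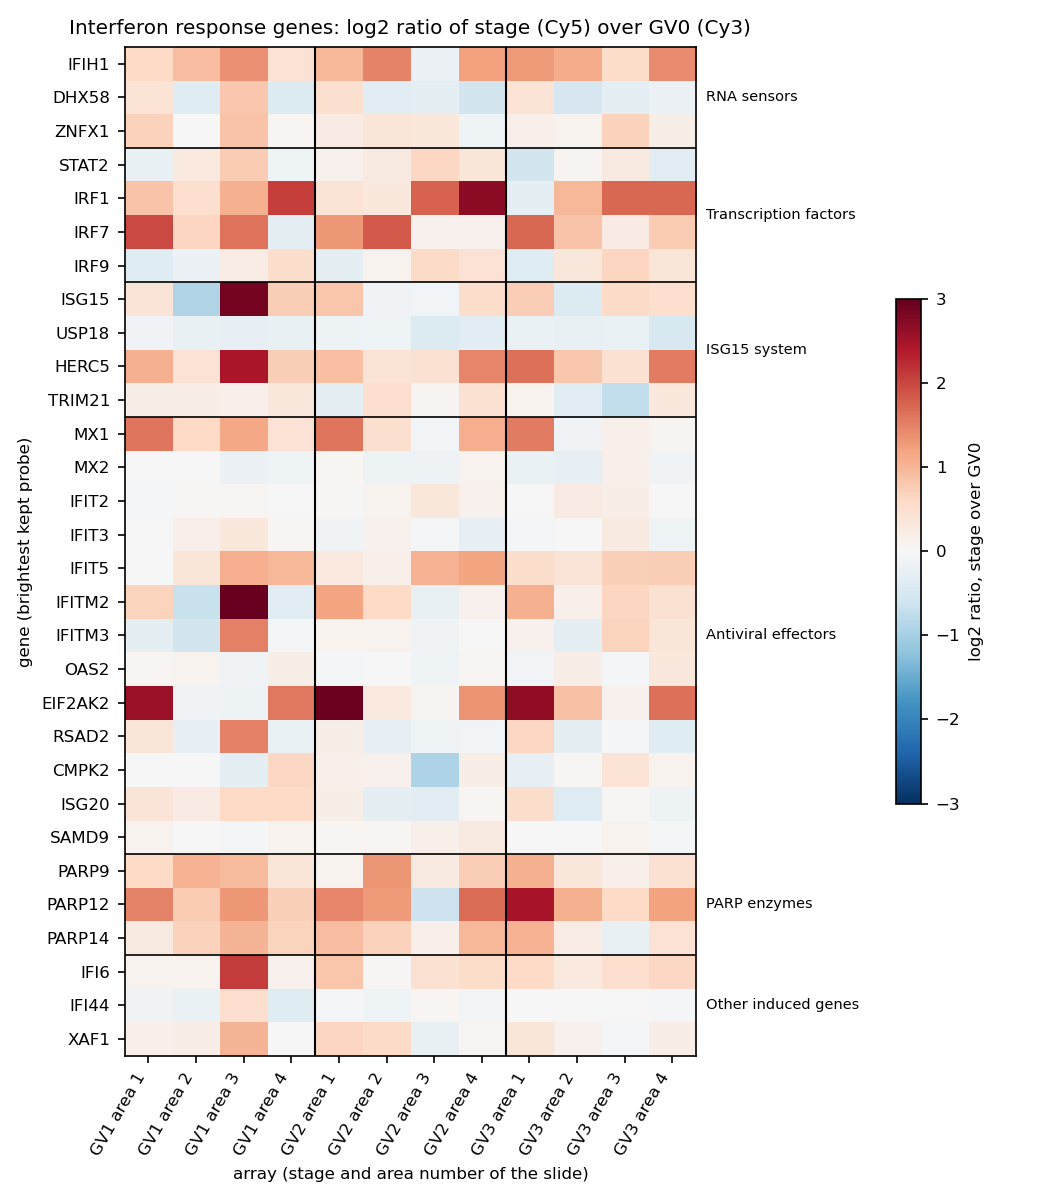
Heat map of the log2 ratio of stage (Cy5) over GV0 (Cy3) for the 30 tested interferon response genes (rows, grouped by role) on the 12 arrays (columns, by stage and area number of the slide); red is higher and blue lower in the stage. The GV1 area 3 column holds 14 ratios over 1, and EIF2AK2 and IRF1 repeat their pattern over area numbers in all 3 stages.

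Among the RNA sensors, IFIH1 (MDA5), which detects long viral RNA duplexes, was the 1 gene of the group that passed by its brightest probe. Its ratio in areas 1 to 4 was 0.60, 0.93, 1.37 and 0.43 in GV1, 0.99, 1.50, -0.18 and 1.23 in GV2, and 1.27, 1.11, 0.55 and 1.42 in GV3. The GV3 signals (Cy5 log2 levels 8.21 to 8.63) did not overlap those of GV0 on the same arrays (Cy3, 7.10 to 7.69), while GV1 and GV2 signals overlapped those of GV0. The mean difference was 1.09 in GV3 (SE 0.25, n = 4, adjusted p = 0.0178), 0.89 in GV2 (SE 0.25, adjusted p = 0.0414) and 0.83 in GV1 (SE 0.25, adjusted p = 0.0533). GV2 area 3 was the 1 array of 12 below 0. The GV0 signal was not above background on GV1 areas 2 and 4, so the size of the GV1 difference is uncertain.

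DHX58 (LGP2), a relative of IFIH1 without a signalling domain, had means of 0.12, -0.17 and -0.14 in GV1, GV2 and GV3. Its ratios were above 0 in area 1 of all 3 slides (0.42, 0.49 and 0.41) and in GV1 area 3 (0.81), and below 0 on the other 8 arrays. ZNFX1, a helicase that senses viral RNA at mitochondria, has 3 kept probes. The brightest averaged 0.40 in GV1 (SE 0.15, adjusted p = 0.119), a dimmer one 0.56 (SE 0.16, adjusted p = 0.0492) and the last 0.16 (SE 0.17), so the call depends on the probe. The dimmer probe was above background in Cy3 on 6 of 12 arrays.

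Of the transcription factors, IRF1, which binds promoters of many interferon-stimulated genes, had large ratios that followed the area number. They were 0.86, 0.51, 1.06 and 2.06 in GV1, 0.41, 0.31, 1.77 and 2.68 in GV2, and -0.27, 1.00, 1.72 and 1.73 in GV3. Areas 3 and 4 gave ratios over 1 in every stage, and area 1 did not. The means were 1.12, 1.29 and 1.05 (SE 0.43, adjusted p = 0.116, 0.0752 and 0.137), so means of over 2 times the GV0 signal did not pass the test.

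IRF7, which drives the amplification of type I interferon, had its ratios over 1 in areas 1, 2 and 3. Its ratios were 1.98, 0.65, 1.62 and -0.26 in GV1, 1.31, 1.83, 0.13 and 0.12 in GV2, and 1.71, 0.85, 0.25 and 0.77 in GV3. The mean was 1.00 in GV1, 0.85 in GV2 and 0.90 in GV3 (SE 0.38, adjusted p = 0.120, 0.181 and 0.155). STAT2 and IRF9, partners in the complex that type I interferon activates, had smaller means. Single ratios ran from -0.54 to 0.76 for STAT2 and from -0.36 to 0.65 for IRF9, which was below 0 in area 1 of all 3 slides. STAT2 averaged 0.18, 0.35 and -0.14 in GV1, GV2 and GV3 (SE 0.17), and IRF9 averaged 0.05, 0.20 and 0.25 (SE 0.19).

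The ISG15 system attaches a ubiquitin-like tag to proteins. ISG15, the tag itself, had the widest range of the 30 genes over the 12 arrays, 3.78 log2 units. Its ratios were 0.39, -0.90, 2.88 and 0.73 in GV1, 0.83, -0.09, -0.09 and 0.52 in GV2, and 0.74, -0.42, 0.59 and 0.50 in GV3. GV1 area 3 was 2.14 above the next GV1 array, and area 2 was below 0 in all 3 stages. The GV1 mean was 0.77 (SE 0.45, adjusted p = 0.296) and 0.07 without area 3. A second ISG15 probe also had its highest GV1 ratio on area 3, at 1.12.

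HERC5, the ligase that attaches ISG15 in human cells, was above GV0 on all 12 arrays. Its ratios were 1.08, 0.43, 2.45 and 0.73 in GV1, 0.90, 0.42, 0.45 and 1.45 in GV2, and 1.65, 0.80, 0.45 and 1.57 in GV3. The signals overlapped GV0 in each stage, and the GV0 pool of area 2 was high (Cy3 log2 level 9.17, against 8.19 to 8.36 in the other pools). The mean was 1.17 in GV1 (SE 0.31, adjusted p = 0.0360), 0.81 in GV2 (SE 0.31, adjusted p = 0.118) and 1.12 in GV3 (SE 0.31, adjusted p = 0.0399). Without area 3 the GV1 mean was 0.75 (SE 0.26, adjusted p = 0.121).

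USP18, which removes ISG15 from proteins and restrains the type I interferon receptor, was the 1 member that fell. Its ratios were -0.10, -0.23, -0.24 and -0.22 in GV1, -0.14, -0.13, -0.41 and -0.33 in GV2, and -0.21, -0.22, -0.19 and -0.47 in GV3. All 12 were below 0 and none reached -0.5, one of the narrowest ranges among the members (0.37). The mean was -0.20 in GV1 (SE 0.07, adjusted p = 0.0824), -0.25 in GV2 (SE 0.07, adjusted p = 0.0331) and -0.27 in GV3 (SE 0.07, adjusted p = 0.0240). The Cy5 signal of this probe was above background on 1 of 4 GV3 arrays, and a second USP18 probe averaged 0.07, -0.11 and -0.06, so the small decrease rests on 1 dim probe. TRIM21, a cytosolic antibody receptor and ubiquitin ligase, averaged 0.22, 0.19 and -0.15 in GV1, GV2 and GV3 (SE 0.16).

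Ranges of the antiviral effectors over the 12 arrays ran from 0.29 for SAMD9 to 3.64 for IFITM2. Besides USP18, the narrowest ranges of the 30 genes were those of SAMD9, IFIT2 (0.39), MX2 (0.41), OAS2 (0.44) and IFIT3 (0.56). IFIT2 and IFIT3, which bind viral RNA as a complex, had ratios from -0.06 to 0.33 and from -0.25 to 0.31. MX2, a dynamin-like GTPase, ranged from -0.26 to 0.15, SAMD9, an antiviral factor of the cytosol, from -0.03 to 0.26, and OAS2, which makes the oligoadenylates that activate RNase L, from -0.12 to 0.32. OAS2 was above background in Cy5 on 6 of 12 arrays and SAMD9 on 10, while IFIT2, IFIT3 and MX2 exceeded it with both dyes on each array. GV0 levels were low, at 6.98 to 7.18 for SAMD9, 7.07 to 7.19 for IFIT2, 7.18 to 7.28 for IFIT3 and 7.54 to 7.62 for MX2. Those of the dim USP18 probe were 7.20 to 7.38. Whether low signal narrows these ranges was not tested.

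MX1, the dynamin-like GTPase that blocks influenza and related viruses, differed from MX2, its chromosomal neighbour. Its ratios were 1.60, 0.61, 1.15 and 0.44 in GV1, 1.61, 0.49, -0.09 and 1.09 in GV2, and 1.57, -0.11, 0.16 and 0.08 in GV3. Area 1 gave the highest ratio of each stage. The mean was 0.95 in GV1 (SE 0.31, adjusted p = 0.0768), 0.78 in GV2 (SE 0.31, adjusted p = 0.137) and 0.42 in GV3 (SE 0.31, adjusted p = 0.414).

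EIF2AK2 (PKR), the kinase that halts translation when it binds viral RNA, had the highest ratios in area 1. They were 2.58, -0.10, -0.16 and 1.58 in GV1, 2.95, 0.29, 0.08 and 1.35 in GV2, and 2.66, 0.89, 0.12 and 1.64 in GV3. Areas 1 and 4 were far above 0 in every stage, and areas 2 and 3 were near 0 apart from GV3 area 2. The means of 0.98, 1.16 and 1.33 in GV1, GV2 and GV3 had an SE of 0.57 (adjusted p = 0.297, 0.215 and 0.155).

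IFITM2, a membrane protein that stops virus entry, had ratios of 0.67, -0.66, 2.98 and -0.31 in GV1, 1.19, 0.60, -0.22 and 0.13 in GV2, and 1.06, 0.14, 0.65 and 0.46 in GV3. GV1 area 3 was the highest ratio of any member on any array. The GV1 mean was 0.67 (SE 0.47, adjusted p = 0.393), and -0.10 without area 3. IFITM3, its relative, gave -0.28, -0.55, 1.51 and -0.07 in GV1, and between -0.27 and 0.66 on the GV2 and GV3 arrays. Its GV1 mean of 0.15 was -0.30 without area 3, and its second probe gave 1.66 on area 3. The IFITM3 name is the platform's, and the RefSeq table lists it as a synonym of more than 1 gene, so transcripts of similar genes may share these probes and the values are uncertain.

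IFIT5, an RNA-binding protein of the IFIT family, was higher in areas 3 and 4. Its ratios were 0.00, 0.36, 1.08 and 1.01 in GV1, 0.30, 0.14, 1.04 and 1.19 in GV2, and 0.53, 0.39, 0.71 and 0.74 in GV3. The means were 0.61, 0.67 and 0.59 (SE 0.20, adjusted p = 0.0771, 0.0563 and 0.0816). A second IFIT5 probe exceeded background on 3 of 12 arrays in Cy5 and on 1 in Cy3, so no size is given for it.

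RSAD2 (viperin), which makes a nucleotide that stops viral polymerases, was dim. Its GV1 ratios were 0.36, -0.25, 1.51 and -0.19, with Cy5 above background on areas 1 and 3 and Cy3 on area 2. GV0 was not above background on any GV2 or GV3 array, so no fold is given for those stages. ISG20, an exonuclease, exceeded background on 4 of 4 GV1 arrays in Cy5 but on 1 in Cy3, and its GV1 ratios were 0.38, 0.24, 0.59 and 0.59 (mean 0.45, SE 0.14, adjusted p = 0.0575). GV0 was not above background for ISG20 on any GV2 or GV3 array. CMPK2, a mitochondrial nucleotide kinase whose gene lies next to RSAD2, averaged 0.10, -0.12 and 0.07 in GV1, GV2 and GV3 (SE 0.19). On GV1 area 3, where RSAD2 was at its highest, CMPK2 was at -0.27.

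The PARP enzymes of the list add single ADP-ribose units to proteins or act with partners that do, and their 3 genes accounted for 3 of the 7 increases that passed. PARP9, which acts with the ubiquitin ligase DTX3L, was above 0 on all 12 arrays, at 0.61, 1.05, 0.94 and 0.37 in GV1, 0.10, 1.32, 0.26 and 0.74 in GV2, and 1.07, 0.35, 0.14 and 0.45 in GV3. GV1 signals (Cy5, 9.09 to 9.90) did not overlap those of GV0 on the same arrays (Cy3, 8.30 to 8.96). The mean was 0.74 in GV1 (SE 0.20, adjusted p = 0.0381), 0.61 in GV2 (adjusted p = 0.0737) and 0.50 in GV3 (adjusted p = 0.127). Without area 3 the GV1 mean was 0.68 (SE 0.24, adjusted p = 0.124).

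PARP12, which gathers at stress granules, gave 1.50, 0.76, 1.30 and 0.71 in GV1, 1.46, 1.29, -0.62 and 1.68 in GV2, and 2.47, 1.08, 0.59 and 1.21 in GV3. It was above 0 on every array but GV2 area 3. The mean was 1.34 in GV3 (SE 0.37, adjusted p = 0.0382), 1.07 in GV1 (adjusted p = 0.0856) and 0.95 in GV2 (adjusted p = 0.118). Without GV3 area 1 the GV3 mean was 0.96 (adjusted p = 0.144).

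PARP14, a large member with macrodomains, gave 0.27, 0.69, 1.02 and 0.66 in GV1, 0.92, 0.68, 0.15 and 1.00 in GV2, and 1.04, 0.22, -0.23 and 0.42 in GV3. In GV2 its signals (Cy5, 7.24 to 7.89) did not overlap those of GV0 on the same arrays (Cy3, 6.74 to 7.09). The mean was 0.69 in GV2 (SE 0.19, adjusted p = 0.0438), 0.66 in GV1 (adjusted p = 0.0527) and 0.36 in GV3 (adjusted p = 0.252).

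IFI6, an interferon-induced membrane protein of mitochondria and the endoplasmic reticulum, showed 1 array apart from the rest. Its GV1 ratios were 0.10, 0.10, 2.09 and 0.13, and its GV2 and GV3 ratios lay between 0.04 and 0.84. The GV1 mean was 0.60 (SE 0.28, adjusted p = 0.190), and 0.11 without area 3. IFI44, whose role is little known, averaged -0.04, -0.06 and -0.01 in GV1, GV2 and GV3 (SE 0.11), with Cy5 above background on 4 of 12 arrays. XAF1, which counters the cell death inhibitor XIAP, gave 0.16, 0.19, 1.02 and 0.02 in GV1. Its GV0 signal was not above background on GV1 areas 1 and 3 or on any GV3 array, so the size of the area 3 ratio is uncertain. A second XAF1 probe averaged below 0, at -0.12, -0.08 and -0.15 in GV1, GV2 and GV3 (SE 0.10), so the direction depends on the probe.

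**Figure D2:**
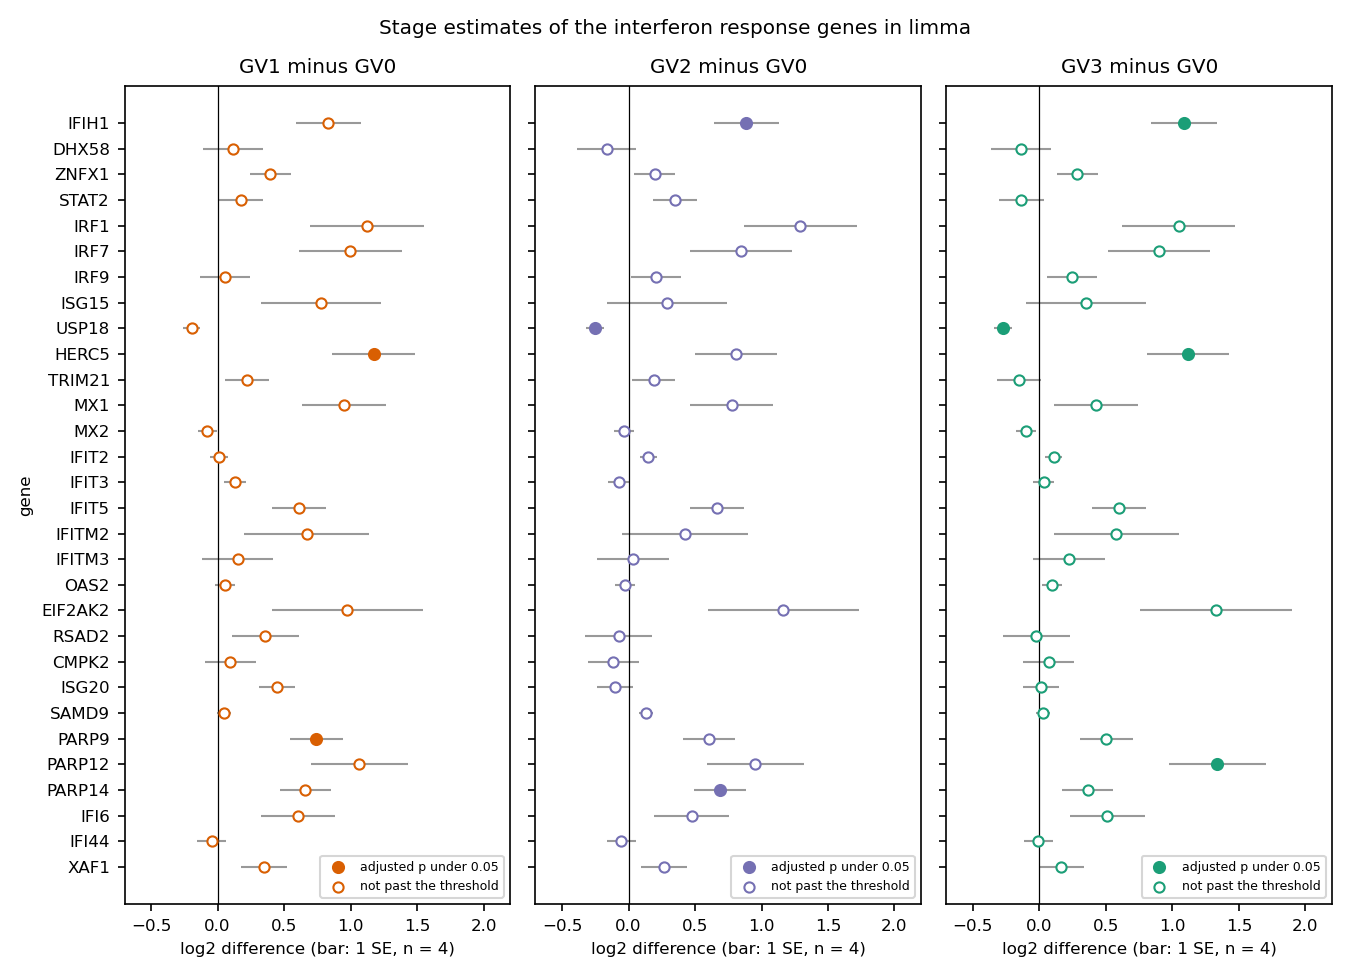
Mean log2 difference of GV1, GV2 and GV3 from GV0 for each of the 30 genes (points, n = 4 arrays each), with bars of 1 SE from limma and filled points where the adjusted p is under 0.05. IFIH1, HERC5 and PARP12 lie right of 1 in GV3 with filled points, USP18 lies just left of 0, and RSAD2, ISG20 and XAF1 are drawn also where their GV0 signal was not above background.

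GV1 area 3 carried much of the GV1 signal. The median ratio of the 30 genes on it was 0.90, against 0.10 to 0.22 on the other 3 GV1 arrays and -0.01 to 0.39 on the 8 arrays of GV2 and GV3. It had 14 of 30 ratios over 1, or 46.7%, while 2.41% of all named genes were over 1 on that array. It held the highest GV1 ratio for 17 of the 30 genes (56.7%, against 22.6% of all named genes). ISG15, HERC5, IFITM2, IFITM3, IFI6 and RSAD2 lay 1 log2 unit or more above the next GV1 array, while 1.44% of all named genes lay that far apart in either direction. RSAD2 and ISG20 were kept through GV1 alone. Among the 28 other members, 13 ratios were over 1, 15 were the highest of GV1, 5 lay 1 unit apart, and the median was 0.90.

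For 12 of the 14 genes with a ratio over 1, the Cy5 level, that of the GV1 pool, was above those of the other GV1 arrays. The exceptions were IRF1 and IFIT5. For 8 of the 14 the GV0 level was also below the mean of the other GV1 arrays, with a difference of -0.76 for IFITM3 and -0.52 for IFIT5. The Cy5 level of GV1 area 3 was the highest of all 12 arrays for 15 of the 30 genes, or 50%, against 8.05% of all named genes. For IFI6 it was 9.33, against 7.13 to 7.17 on the other GV1 arrays, while the GV0 level on area 3 was 7.23. For IFITM2 it was 13.52, against 10.21 to 11.07 on the other GV1 arrays. Not every member took part: EIF2AK2, CMPK2, MX2, OAS2, SAMD9 and USP18 were below 0 on this array.

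Some markers of another cell type were high on this array. Of 17 theca and stroma markers 16 were tested, and 7 of these had ratios over 1 on GV1 area 3, against 0 to 2 on the other arrays. Among the 16, 10 were above all other GV1 arrays and 3 below them, while 22.6% of all named genes had their highest GV1 ratio there. The list had a median of 0.19 and a mean of 1.57 there, so a part of it carried the mean. The collagen gene COL1A2 was at 7.16 there, against -0.56 to -0.14 on the other GV1 arrays, and COL3A1 at 6.67, against -0.34 to 0.24. THY1 was at 3.07 and LUM at 2.54. The theca enzyme gene CYP17A1 was at -0.21, against -0.58 to -0.22, so it is among the 10 above the others. NR2F2, 1 of the 3 below, was at -0.43, against 0.08 to 1.13. The summed level of the 16 markers was 65592 in Cy5 on GV1 area 3, against 11524 to 19390 on the other 11 arrays, and 13973 to 17390 in Cy3. Cumulus and granulosa markers averaged -0.21 on the same array, against -0.04 to 0.09 on the other GV1 arrays, and -0.26 on GV2 area 3. Their summed Cy5 level on GV1 area 3 was 148012, within the 142610 to 150495 of the other GV1 arrays. In Cy3 the sum was 153355 there, against 110804 to 121118 on the other GV1 arrays. Of the 16 markers, 6 were below all other GV1 arrays and 1 above them, and the share of all named genes below them was not counted. FST was at -0.59, against 0.23 to 0.83, INHA at 0.09, against 0.67 to 0.92, and FSHR at -0.12, against 0.16 to 0.74. GATM, the 1 above, was at -1.21, against -2.39 to -1.43. The rest, CYP19A1 and PTX3 among them, lay within the range of the other GV1 arrays. The part of both lists in the interferon result was not tested.

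The leukocyte markers were mixed on GV1 area 3. Of 17 tested, 5 (CD68, CD14, CD163, CD3E and CD3D) were above all other GV1 arrays and 4 were below them. Of all named genes, 22.6% had their highest GV1 ratio on this array, so the 5 are not read as a result. On it 17 exceeded background in Cy5, against 7 to 15 on the other arrays. CD68 and BOLA-DRA were over 1, CD68 at 1.23 against at most 1.00 on the other GV1 arrays, and PTPRC, which defines leukocytes, was at -0.06. The summed Cy5 level of the list was 3826, within the 2394 to 6730 of the other arrays, and their summed Cy3 levels ran from 2325 to 9036. CD68 rose in all 3 stages, by 0.88 in GV1, 0.98 in GV2 and 1.22 in GV3 (SE 0.24, adjusted p = 0.0391, 0.0250 and 0.00944). With CD68, BOLA-DRA, CD3E and FCER1G rose in GV1, 4 of the 17, against 3.78% of all named genes. For BOLA-DRA, GV0 exceeded background on 1 of 12 arrays. The part of the leukocyte markers in the interferon differences was not tested.

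**Figure D3:**
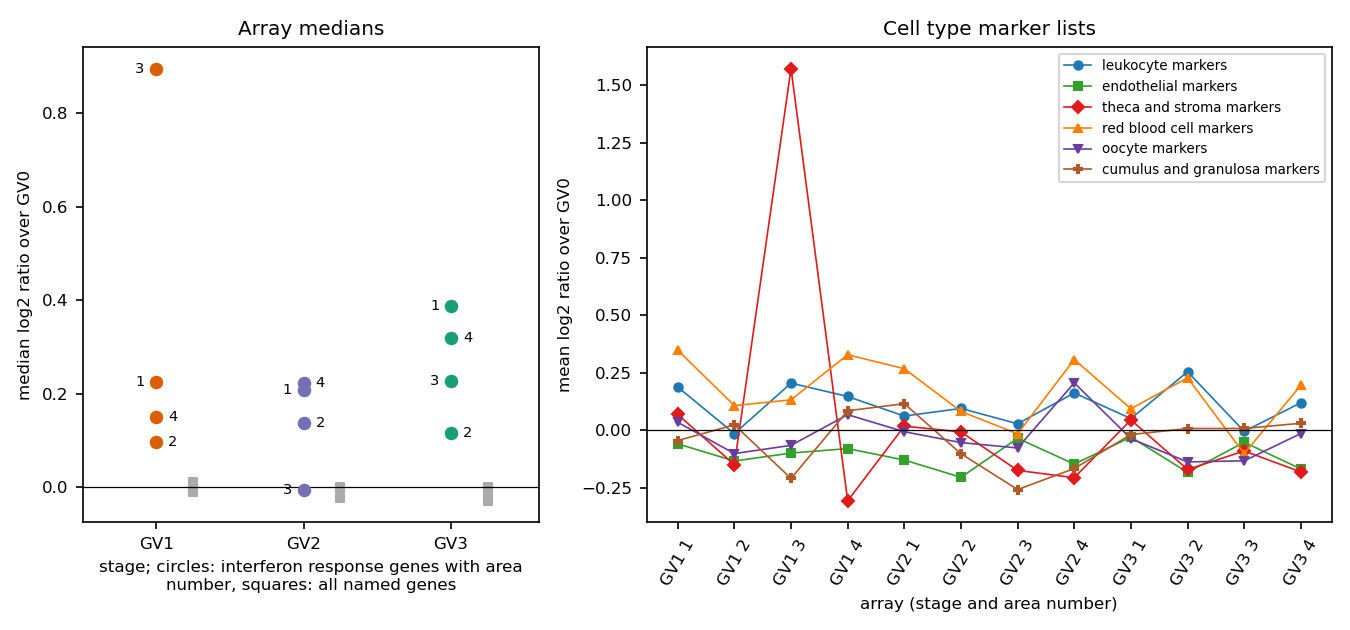
Left, the median log2 ratio over GV0 of the 30 interferon response genes on each array (circles, with the area number) and of all named genes (grey squares) by stage; right, the mean log2 ratio over GV0 of 6 cell type marker lists on each array. GV1 area 3 is highest in the left panel at 0.90, and the theca and stroma list reaches 1.57 on the same array.

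Without GV1 area 3, 22 of the 30 genes had a lower GV1 mean. The largest decreases were those of the genes that stood apart on it. IRF1 averaged 1.14 without the array and 1.12 with it, MX1 0.88 and 0.95, and PARP12 0.99 and 1.07. EIF2AK2 was higher without it, at 1.36 against 0.98. None of these passed the test with or without the array. With 11 arrays limma still called 218 named genes higher and 350 lower in GV1.

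**Figure D4:**
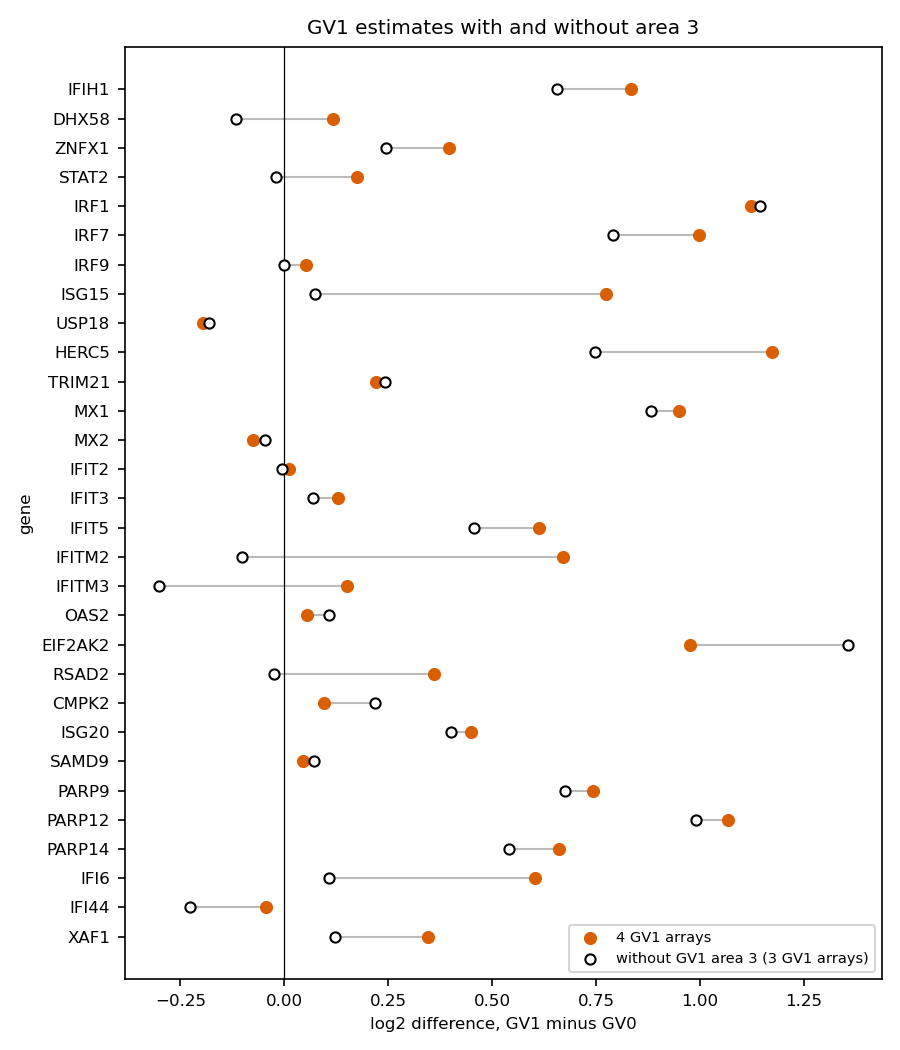
Mean log2 difference of GV1 from GV0 for the 30 genes over 4 GV1 arrays (filled) and over 3 arrays without area 3 (open). ISG15, IFITM2, IFITM3 and IFI6 move most to the left, while IRF1, MX1 and PARP12 stay near 1 and EIF2AK2 moves right.

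The 4 GV0 pools themselves differed in these genes. Averaged over the 3 slides, the range of GV0 levels between pools had a median of 0.54 log2 units over the 30 genes, while the pooled SD between slides was 0.10. Over all named genes these values were 0.46 and 0.09. For 17 of 30 members (56.7%) the range was over 4 times that SD, against 54.9% of all named genes, so the members' share was near that of all genes.

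For EIF2AK2 the areas with high ratios were those with low GV0 levels. It had a GV0 level of 7.01 in area 1 and 7.05 in area 4, against 8.10 in area 2 and 8.41 in area 3, with slide SDs of 0.10 to 0.12. Its Cy5 levels in areas 2 to 4 lay between 8.03 and 8.86 in all 3 stages, and in area 1 between 9.55 and 10.07. IRF1 had a GV0 level of 10.01 in area 1 and 8.58 to 8.83 in the others, and the stage levels of area 1 ran from 9.72 to 10.82. PARP12 was highest in the GV0 pool of area 3, at 9.92 against 8.35 to 8.93, and ISG15 in those of areas 1 and 2, at 8.35 and 8.53 against 7.16 and 7.56. GV0 levels of the narrow-range genes MX2, IFIT3 and IFIT2 differed by 0.08, 0.10 and 0.12 between pools.

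**Figure D5:**
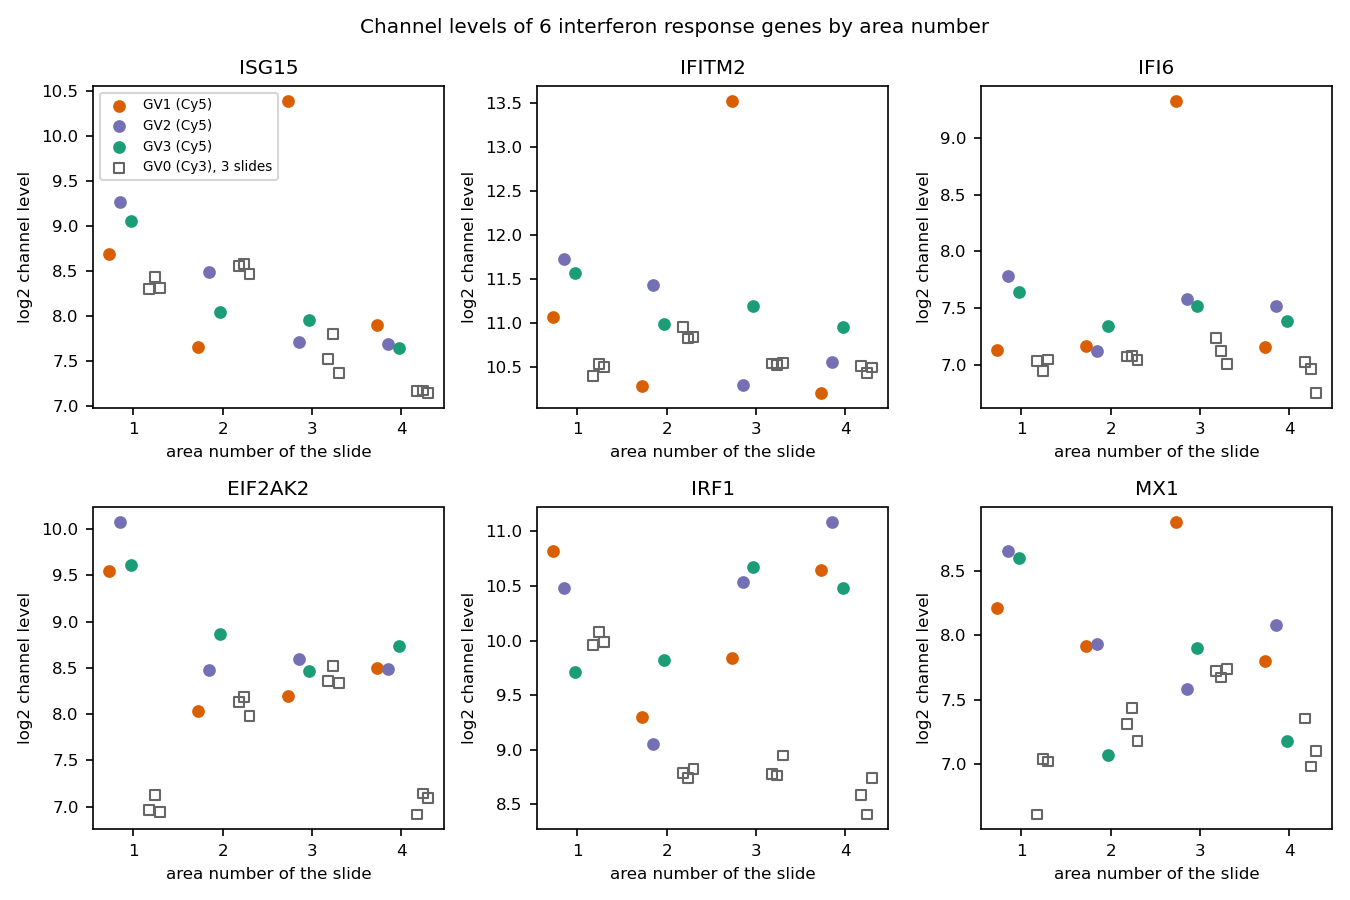
Log2 channel levels of ISG15, IFITM2, IFI6, EIF2AK2, IRF1 and MX1 by area number; filled circles are the GV1, GV2 and GV3 pools in Cy5, and open squares the GV0 pool of that area on 3 slides in Cy3. The GV1 area 3 circle is far above the rest for ISG15, IFITM2 and IFI6, and the EIF2AK2 squares lie near 7 in areas 1 and 4 and at 7.98 or more in areas 2 and 3.

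With the area number as a fixed replicate block, which takes out whatever an area number shares over the 3 slides, more genes passed. This removes the spread between GV0 pools and any spread that stage pools share by area number. The p-values of the fixed block therefore do not cover that spread. In GV1 12 members rose and 1 fell, in GV2 9 rose and 1 fell, and in GV3 8 rose and 1 fell. The background was high in the same fit: 14.7%, 15.6% and 14.7% of all named genes rose, 15%, 14.1% and 16.1% fell, and 29.8%, 29.7% and 30.8% passed in either direction. EIF2AK2 rose in all 3 stages of this fit (SE 0.12, adjusted p = 0.000917, 0.000378 and 0.000188), as did IRF1 (SE 0.21, adjusted p = 0.00611, 0.00321 and 0.00715) and IFIT5 (SE 0.11, adjusted p = 0.00454, 0.00292 and 0.00433). With the area number as a random block, at an estimated correlation of 0.463, limma called no member in GV1, and EIF2AK2 had an adjusted p of 0.160, 0.0996 and 0.0643 in GV1, GV2 and GV3. That fit called IRF1 and IFIT5 higher and USP18 lower in GV2, and IFIH1 and PARP12 higher and USP18 lower in GV3. With the fixed block, IFIH1 and PARP12 also rose in each stage, MX1, PARP9 and PARP14 in GV1 and GV2, IRF7 and HERC5 in GV1 and GV3, ZNFX1 and ISG20 in GV1, STAT2 in GV2 and IRF9 in GV3, and USP18 fell in each. Without ISG20, which was kept through GV1 alone, 11 members rose in GV1. The block called none of the differences between stages.

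Genes that act upstream of these members were counted next. Of 24 interferon ligand and receptor genes 8 were tested: none rose, and IFNAC and IFNG fell in each stage, or 25% of a list of 8. IFNAC, an interferon alpha gene, fell by 0.30 in GV1, 0.28 in GV2 and 0.34 in GV3 (SE 0.07, adjusted p = 0.0193, 0.0253 and 0.0102). IFNG was above background in Cy5 on 2 of 12 arrays, so no size is given for it. Of the 19 tested signal transducers and regulatory factors, IRF2 rose in GV1, by 0.45 (SE 0.11, adjusted p = 0.0274), and 1, 1 and 3 fell in GV1, GV2 and GV3 (5.26%, 5.26% and 15.8%, against 5.69%, 5.73% and 6.7% of all named genes). PTPN1, a phosphatase that dampens JAK kinases, fell by 0.33, 0.29 and 0.34 (SE 0.07), and PIAS4, an inhibitor of STAT proteins, and the kinase JAK1 fell in GV3 by 0.44 (SE 0.09) and 0.27 (SE 0.07).

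Of 24 tested sensing and adaptor genes, 2 rose in GV1, 4 in GV2 and 3 in GV3, and none fell. These are 8.33%, 16.7% and 12.5% of the list, against 3.78%, 4.58% and 4.3% of all named genes, with medians of 0.26, 0.22 and 0.19. TRIM25, the ligase that activates the sensor RIG-I, rose by 0.84, 0.99 and 1.33 (SE 0.23, adjusted p = 0.0406, 0.0203 and 0.00522). PCBP2, an RNA-binding protein that promotes decay of the adaptor MAVS, rose by 0.48, 0.51 and 0.60 (SE 0.07), the adaptor TICAM2 and the NF-kB subunit RELA rose in GV2, and LRRFIP1 rose in GV3 by 1.33 (SE 0.28). Of 16 tested genes of antigen processing and MHC class I, 3 rose in GV1, 4 in GV2 and 5 in GV3 (18.8%, 25% and 31.2%), and none fell.

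TAP2, a subunit of the peptide transporter that loads MHC class I, rose by 0.82, 0.63 and 0.81 in GV1, GV2 and GV3 (SE 0.10, adjusted p = 0.00138, 0.00458 and 0.00129). The immunoproteasome subunit gene PSMB8 rose by 0.53, 0.49 and 0.42 (SE 0.10), and the proteasome activator gene PSME1 by 0.49, 0.56 and 0.51 (SE 0.12). NLRC5, the transactivator of MHC class I genes, rose in GV2, and B2M and TAP1 in GV3. The median ratio of these 16 genes was 0.35, 0.29 and 0.40 in the 3 stages. On GV1 area 3 it was 0.16, against 0.23 to 0.43 on the other GV1 arrays, unlike the median of the 30 members, which was highest there.

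Of 38 other interferon-stimulated genes tested, 3 rose in GV1, 2 in GV2 and 3 in GV3, and 1, 1 and 2 fell. The risen shares of 7.89%, 5.26% and 7.89% stand beside the 3.78%, 4.58% and 4.3% of all named genes, and the fallen shares of 2.63%, 2.63% and 5.26% beside 5.69%, 5.73% and 6.7%. PLSCR1, a phospholipid scramblase, rose by 0.92, 0.73 and 0.70 (SE 0.17), and NMI, a binding partner of STAT proteins, by 0.71, 0.78 and 0.76 (SE 0.17). LGALS3BP, a secreted glycoprotein, rose in GV1 by 0.67 and in GV3 by 0.65 (SE 0.14). APOL3 fell in GV1 by 0.41 and in GV3 by 0.68 (SE 0.11), and the transcription factor gene BATF2 fell in GV2 by 0.79 and in GV3 by 1.16 (SE 0.22). On GV1 area 3, 8 of the 38 were over 1, against 1 to 5 on the other arrays. IFI27 at 3.34 and OAS1Z at 2.31 were the highest that stood 1 log2 unit apart there, and were picked out after their values were seen. The OAS1Z value is that of the brightest of 3 probes that the platform names OAS1, a symbol the RefSeq table gives to OAS1Z, and the others were at 1.15 and -0.19 there.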

How the data were processed

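The members and gene lists were chosen with earlier results of these data known. The deposited scanner tables give mean and median spot intensity and local background intensity per channel, per the file headers, and another column, a flag of 0 or 1 whose rule is not given in the sources used here. The deposited series matrix holds log2 ratios; they matched log2 ratios of the median signals after loess without background correction (r of 1.00 on each array), and were an alternative only. From the mean signals, background was corrected with normexp (offset 50, flagged spots out of the fit and the ratios) and ratios were normalised by loess within each array in limma 3.58.1 (R 4.3.3). A probe was kept if its Cy5 or Cy3 signal passed a limit, set at 2 SD above the average of the 153 negative controls, on at least 3 of 4 arrays of a stage, which left 36321 of 43794. A gene is its brightest kept probe. Platform symbols were updated with the RefSeq gene table of ARS-UCD2.0, used for names and neighbours only: 14114 were current, 982 renamed and 133 unmatched. Of the 30 tested members, 25 passed the filter in 3 stages, 3 in 2 stages (IFI44, OAS2 and XAF1), and ISG20 and RSAD2 through GV1 alone, so counts over the members do not describe the genes left out.

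One limma model with a coefficient per stage was fitted over the 12 arrays (9 residual degrees of freedom), each coefficient was tested against 0 and against the others, and p-values were adjusted over all kept probes (Benjamini-Hochberg, threshold 0.05). It takes arrays as independent although stages share GV0 pools. Channel levels are log2 values after loess and Aquantile between arrays. Pairing was checked, since replicates share area numbers across slides: after subtracting stage means, same-area arrays had correlations of 0.493 to 0.735 (12 pairs), and each of the 12 arrays correlated best with an array of its area. Members are given in full where called, where GV1 area 3 lies at least 1 log2 unit from the nearest GV1 ratio, or where their range is among the 6 smallest or 6 largest. No genome or sequence table was used here, so no probe position is given. The scripts were tested on simulated data.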

Additional observations from a re-analysis of the deposited data

Results flagged for a closer look

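In 9 of 90 member and stage groups of 4 arrays, 1 array lay far from the other 3 by Dixon's test. The nominal rate of about 1 in 20 assumes independent groups, while these share arrays and GV0 pools. The share over all named genes was not counted, so the number is not read as more than chance. IFI6 on GV1 area 3 was at 2.09, against 0.10 to 0.13 on the other GV1 arrays. XAF1 on GV1 area 3 was at 1.02, against 0.02 to 0.19, with a GV0 signal not above background on areas 1 and 3. The median of the 30 genes on GV1 area 3, at 0.90 against 0.10 to 0.22, stood apart by the same test. MX1 on GV3 area 1 was at 1.57, against -0.11 to 0.16 on the other GV3 arrays. ZNFX1 on GV3 area 3 was at 0.70, against 0.11 to 0.18. CMPK2 on GV2 area 3 was at -0.93, against 0.13 to 0.19 on the other GV2 arrays, and PARP12 on the same array at -0.62, against 1.29 to 1.68. USP18 on GV1 area 1 was at -0.10, against -0.24 to -0.22, and on GV3 area 4 at -0.47, against -0.22 to -0.19. IFI44 on GV3 area 4 was at -0.0458, against 0.01 on each of the other GV3 arrays.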

How the results depend on the processing

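The number of array pools limits every comparison. Dim probes such as RSAD2, ISG20, OAS2, XAF1, USP18, PARP14, SAMD9, IFIT2 and IFIT3 sit near background, as does the GV0 signal of IFIH1. In GV1, 2 members were called. The count was 1 with median spot signals, the series matrix or a trended and robust prior. It was 0 with all spots in the normexp fit, the filter on both channels of all arrays, the random block (correlation 0.463) or a separate fit per stage. It was 5 with scaling between arrays, 6 with median centring without loess and 13 with the fixed replicate block. In GV2, 3 were called. The count was 0 with median signals, all spots in the normexp fit, the series matrix, both channels or the separate fit, 1 with scaling or the trended prior, 5 with median centring and 10 with the replicate block. In GV3, 4 were called. The count was 0 with the series matrix or the separate fit, 2 with both channels and 9 with the replicate block. Leaving out 1 array or 1 area number at a time gave 0 to 1 in GV1, 0 to 3 in GV2 and 0 to 3 in GV3. No direction turned, and counts under the remaining settings were within 1.5 times. The differences between stages stayed at 0 in each setting run. The GV1 median of 0.38 lay between 0.26 and 0.54 under settings that kept all arrays, and between 0.12 and 0.53 with 1 array left out. The causes were not tested.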
